A study of Mus musculus with 24 samples.

Results

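The genes described here are 35 chemokine and chemokine receptor genes of the mouse, 25 ligands and 10 receptors, in livers of mice fed different diets. They were chosen by name from a table of raw read counts with 34436 rows, and every one of the 35 had a row. Of these, 34 had reads in at least 3 of the 20 liver libraries used, and Ccl17 had single reads in only 2. Enough reads for a test were present in 26 genes, 19 ligands and 7 receptors, among 12595 genes tested in all. The genes below that filter were Ccl7, Ccl8, Ccl12, Ccl17, Ccl19, Cxcl5, Ccr1, Ccr9 and Cxcr2. A gene that passes through the diet in which it is high had to differ, so counts over the 26 are not counts over the 35.

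Whole-liver RNA came from C57BL/6 mice, wild type in genotype. From an age of 8 to 10 weeks each was fed 1 of 6 diets over a period of 8 weeks. Columns of the table could be matched to 5 of the diets. Normal chow (NC) had 4 libraries, high sucrose (HS) had 5, cholic acid (CA) had 4, and 2% cholesterol with cholic acid (titled Chol2%_CA, here Chol_CA) had 4. High sucrose with 2% cholesterol (HS_Chol2%, here HS_Chol) had 3 of 4 labelled samples, and the diet that joins sucrose, cholesterol and cholic acid was not analysed here. Cholic acid is a primary bile acid that raises cholesterol uptake from the gut. One of the samples titled HS carries a diet label of normal chow, and its column could not be identified, so the HS values may hold 1 chow liver. The labels only number the samples, so p-values measure the spread between these samples, which may be technical. Libraries are named by diet and by the table's own number, which starts at 0.

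Chemokines are small secreted proteins, or in a few cases membrane-bound ones, that guide leukocytes along concentration gradients through receptors that couple to inhibitory G proteins. Inflammatory chemokines such as Ccl2 and Cxcl10 are induced in stressed tissue, while homeostatic ones such as Cxcl12 are made in resting tissue. In liver, Kupffer cells, hepatocytes, stellate cells and sinusoidal endothelium are known sources, and monocytes, neutrophils and lymphocytes carry most of the receptors.

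Library depth ran from 6110484 to 10244277 reads assigned to genes, with a median of 7639777. In 8 libraries (NC_3, HS_0, HS_1, HS_2, CA_0, HS_Chol_0, Chol_CA_0 and Chol_CA_1) counts fell with transcript length relative to the mean of all libraries, and in the other 12 they rose. This is called the length trend, and the preparation or RNA quality behind it is not given in the labels. The 3 HS_Chol libraries held 673 to 900 reads on light-strand mitochondrial tRNA genes per 1000000 reads on heavy-strand mitochondrial mRNA, against 8.95 to 83.4 in the other 17 libraries. Exons of 10 of the 35 genes overlap a gene on the opposite strand, so their counts are uncertain where reads of both strands were counted.

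Levels are reads per 1000000 reads (CPM), scaled by edgeR's TMM factors. Differences are log2 fold changes ± SE from edgeR's quasi-likelihood test with 1 mean per diet over all 20 libraries, and a gene was called at a Benjamini-Hochberg adjusted p under 0.05 over the 12595 genes. "Rose" and "fell" are used of called genes. Each call was recomputed under alternatives: another scaling, no filter on low counts, only the diets compared, only libraries with a positive length trend, the sign of that trend as a term, DESeq2, and each library left out in turn. The 4 comparisons with chow share the same 4 NC libraries and are given side by side.

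Chow livers held few chemokine transcripts other than those of 2 ligands. Cxcl12, the ligand of Cxcr4, and Ccl9, a CC ligand of the receptor Ccr1, together made up 84.9% to 91.9% of the summed CPM of the 35 genes in NC libraries. Per kilobase of exon, Cxcl12 stood at 46.2 ± 5.72 CPM (SD, n = 4) in NC and Ccl9 at 19.2 ± 2.43. The next levels per kilobase in chow were Cxcl1 at 3.80 ± 2.26, Cxcl9 at 2.90 ± 1.14 and Cxcl16 at 2.78 ± 0.841, and those 3 did not differ beyond their spread. Another 7 ligands or receptors had at most 3 reads over the 4 NC libraries, and Ccl19, Cxcl5, Cxcr2 and Ccl17 had none.

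The sum of the remaining genes varied with diet. The other 33 genes summed to 35.8 to 74.0 CPM in NC, 42.2 to 70.9 in HS and 49.7 to 185 in HS_Chol. In CA libraries the sum was 58.1 to 204 CPM, and in Chol_CA libraries 181 to 982. The lowest Chol_CA library thus lay above every NC and HS library, but just below the highest HS_Chol and CA ones. Cxcl12 and Ccl9 together made up 23.3% to 66.3% of the summed level in Chol_CA.

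**Figure D1:**
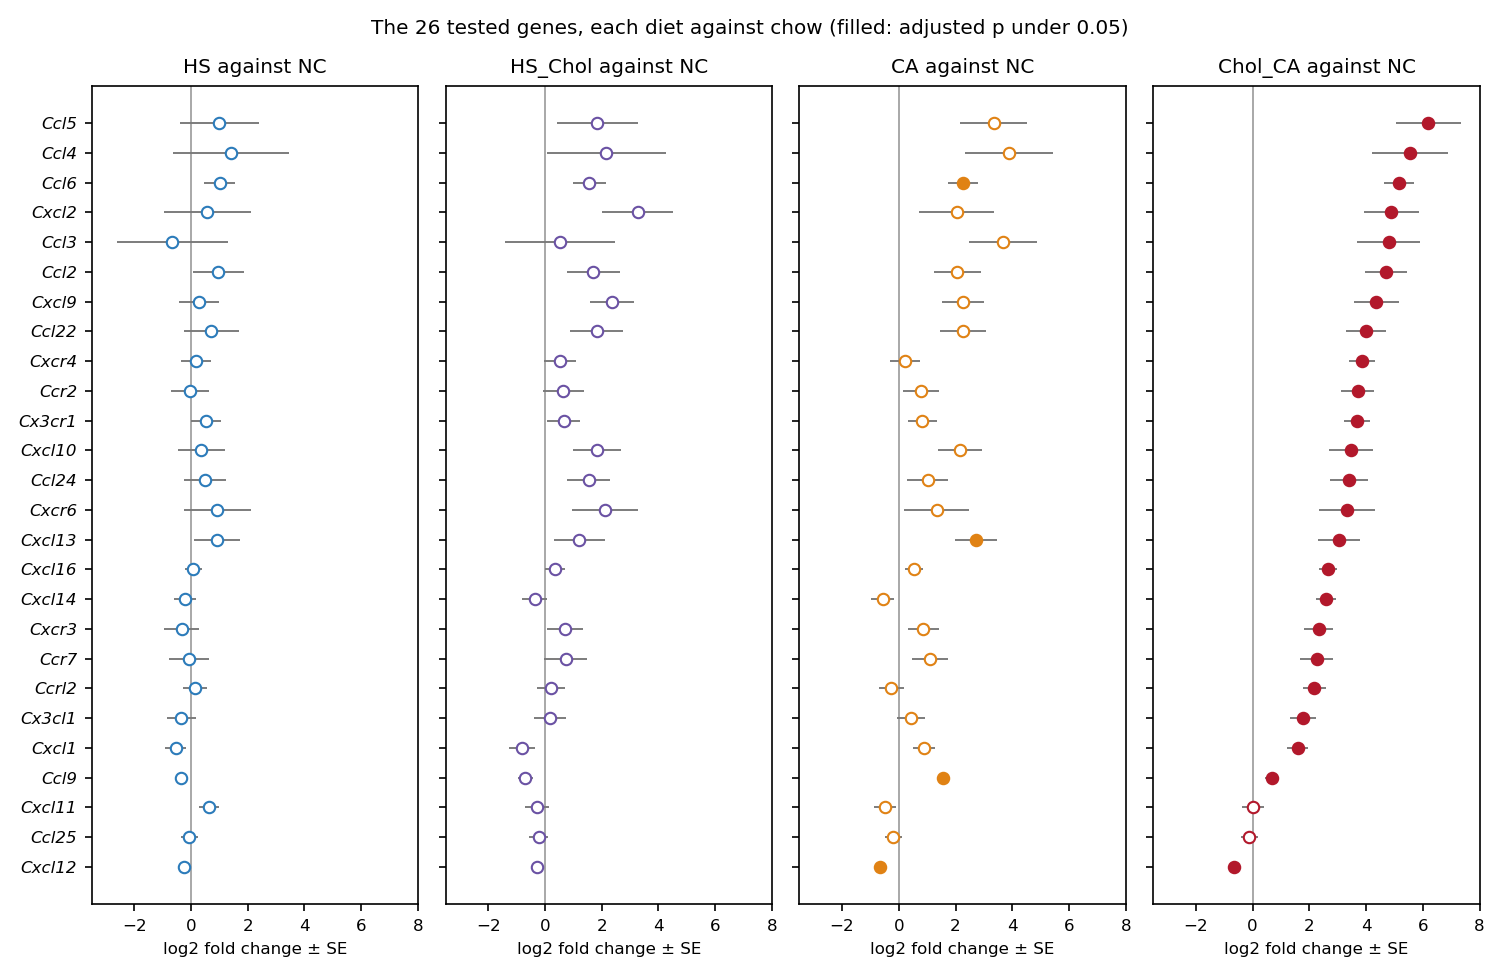
Log2 fold change ± SE of the 26 tested chemokine and receptor genes in each diet against chow, 1 panel per diet, with filled points for genes called at adjusted p under 0.05. No point is filled for HS or HS_Chol, 4 are filled for CA and 24 for Chol_CA.

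High sucrose alone called none of the 26 genes, where 0.214% of all tested genes were called higher and 0.437% lower. None had an unadjusted p under 0.05 in edgeR's test either, where 11.1% of all genes did, and DESeq2 also called none. No gene had every HS library above every NC library, where 2.17% of all genes did, and only Cxcl12 had every one below, where 2.66% did. The median log2 difference of the 26 was 0.23, beside 0.02 over all genes. The smallest adjusted p values belonged to Ccl6 (1.01 ± 0.538, adjusted p = 0.505), Cxcl11 (0.63 ± 0.352, adjusted p = 0.532) and Ccl9 (-0.36 ± 0.218, adjusted p = 0.566).

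High sucrose with cholesterol also called none of the 26, where 1.71% of all genes were called higher and 0.564% lower, and DESeq2 called none. At an unadjusted p under 0.05 there were 5 of the 26 genes, and 11.6% of all genes. The median difference was 0.68, beside 0.00 over all genes. Every HS_Chol library lay above every NC library for 5 of the 26 genes, Ccl4, Ccl5, Ccl6, Ccl22 and Cxcl9, where 6.83% of all genes did so. The nearest NC and HS_Chol libraries held 1 and 1 reads for Ccl4, 2 and 2 for Ccl22, and 8 and 7 for Ccl5. For those genes the separation rests on the scaling to library size and not on more reads. Only Ccl9 had every HS_Chol library below every NC library, where 5.57% did. Cxcl9 had the smallest adjusted p, at 2.36 ± 0.775 (adjusted p = 0.140), and that difference was 0.98 without HS_Chol_0. Ccl9 was at -0.69 ± 0.254 (adjusted p = 0.209). In libraries with a positive length trend alone, it was at -0.69 with an adjusted p of 0.00398.

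Cholic acid alone was followed by changes in 4 ligands and no receptor. Ccl6, Ccl9 and Cxcl13 rose and Cxcl12 fell, so 3 of 26 were called higher, where 5.22% of all genes were, and 1 lower, where 4.61% were. At an unadjusted p under 0.05 there were 12 of the 26 genes, and 21.9% of all genes. Every CA library lay above every NC library for 3 genes (Ccl6, Ccl9 and Cxcl10), where 7.23% of all genes did so, and below for Cxcl12, where 6.38% did. The median difference was 1.05, beside 0.01 over all genes. DESeq2 called 6 of the genes higher, and edgeR called 9 with the sign of the length trend as a term. Over all genes the same fits called 779 and 1069 higher, beside 657 in the fit used here.

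Cholesterol with cholic acid was followed by changes in nearly all tested genes of the family. Of the 26, 23 rose, where 15.0% of all genes did, and Cxcl12 fell, where 9.35% did. Cxcl11 and Ccl25 were not called. No opposite-strand exon overlaps 17 of the 23. Among ligands 16 of 19 rose, and among receptors all 7 tested did, namely Ccr2, Ccr7, Cxcr3, Cxcr4, Cxcr6, Cx3cr1 and Ccrl2. Of the genes that rose, Ccl2, Ccl3, Ccl4, Ccl22, Cxcl2, Ccr7, Cxcr3 and Cxcr6 passed the filter on low counts only with their Chol_CA libraries counted. Counts over the 26, here and against CA, are thus partly set by the filter and not a fair match for the share of all genes. The median difference was 3.36, beside -0.00 over all genes. Every Chol_CA library lay above every NC library for 21 of the 26 genes, where 14.3% of all genes did so, and below for Cxcl12, where 9.56% did. In bulk liver, a change in the number of cells of a type and a change in RNA per cell cannot be told apart.

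**Figure D2:**
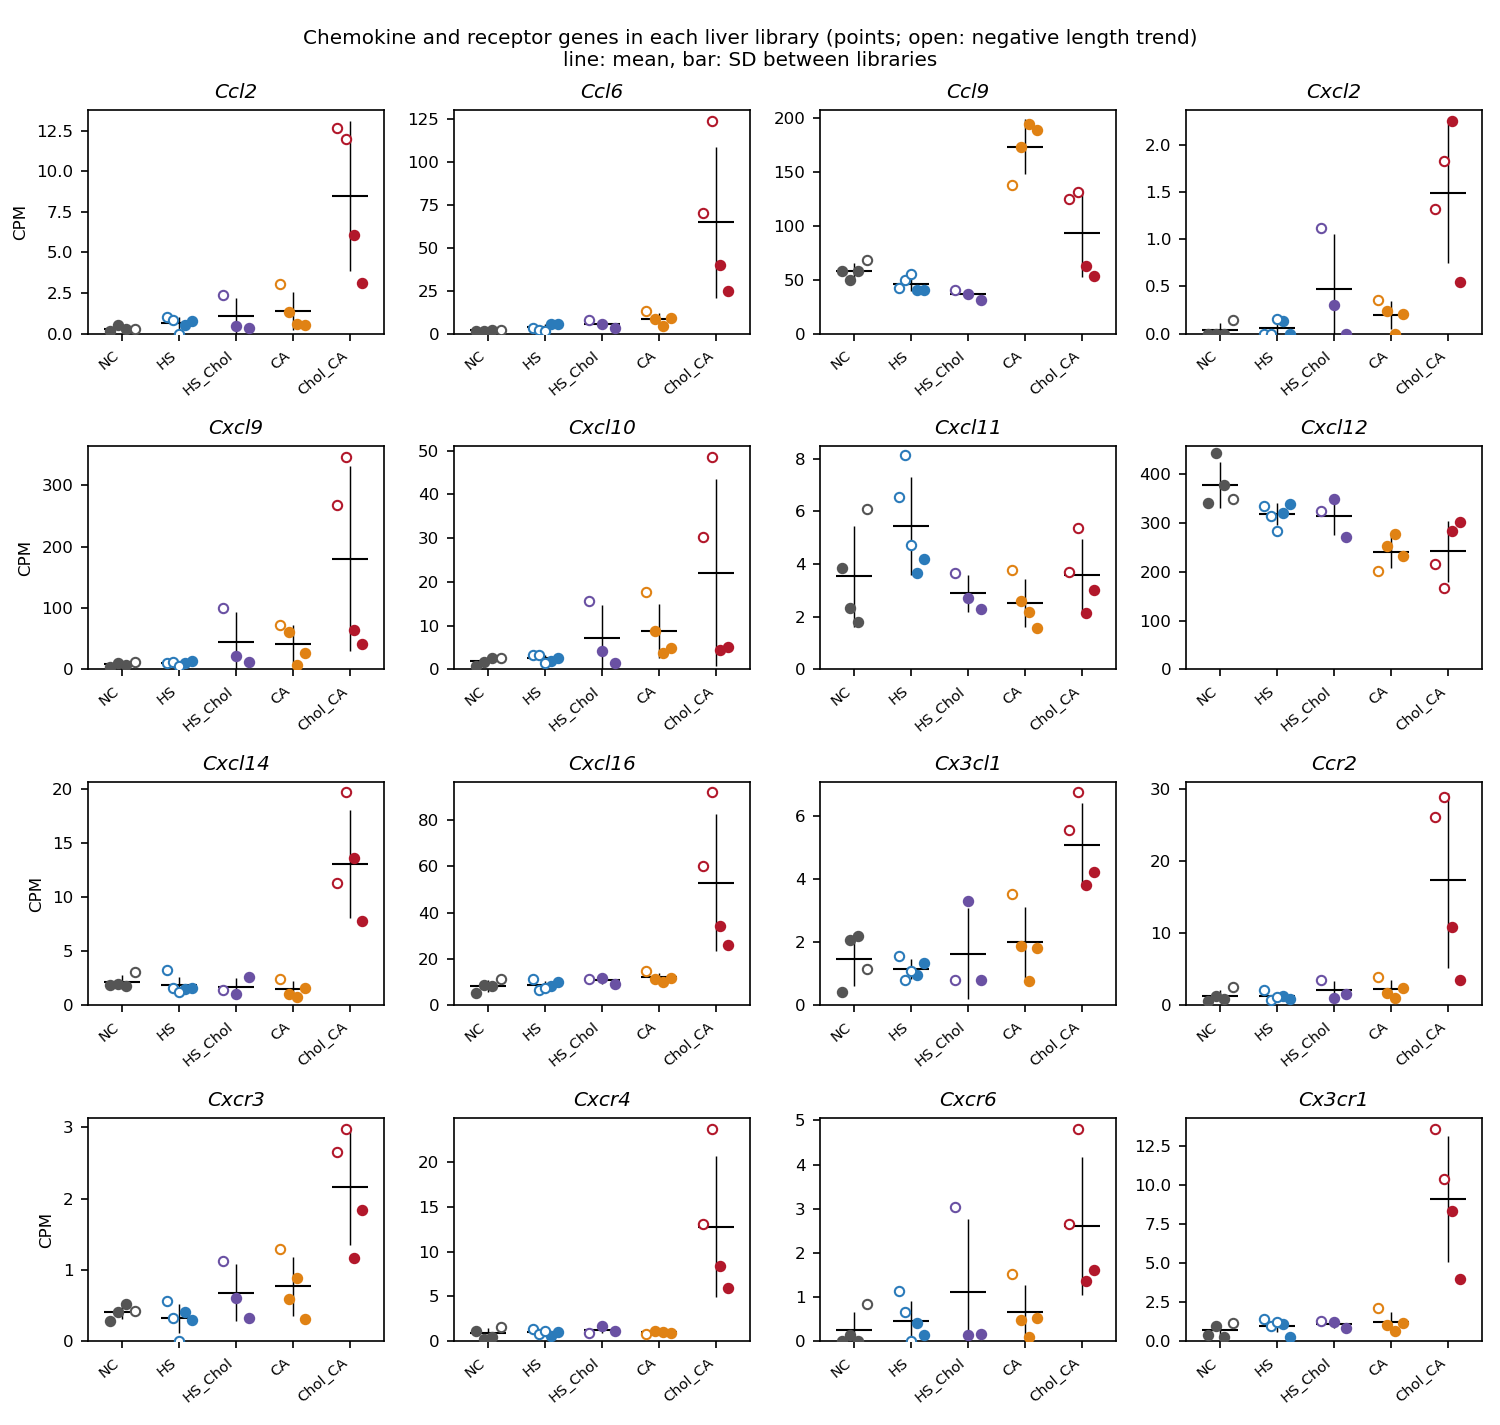
CPM of chemokine and receptor genes in each library, 1 panel per gene with diets along the x axis, points for libraries (open where the length trend is negative), a line for the mean and a bar for the SD between libraries, which ends at 0 where it would pass below. The 4 Chol_CA points of Cxcr4 lie between 5.95 and 23.7 CPM, above every point of the other diets.

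The libraries of Chol_CA were themselves far apart, and the length trend split them. For 19 of the 23 genes that rose, both Chol_CA libraries with a negative length trend lay above both with a positive one. The ratio of the 2 pairs' mean CPM ran from 1.02 for Ccr7 to 12.7 for Ccl5, with a median of 2.49. The pair with a positive trend still lay above every NC library for 21 of the 23. Among positive-trend libraries alone, 19 of the 24 genes then tested were called higher. Over all genes that fit called 1577 higher, beside 1885 in the fit used here. The part of the length trend in the size of these differences was not tested.

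Markers of several leukocytes moved with the same libraries. Summed over 7 Kupffer cell markers, NC libraries stood at 71.3 to 111 CPM, HS_Chol at 170 to 440, CA at 184 to 577 and Chol_CA at 690 to 1850. The 10 markers of monocytes and monocyte-derived macrophages summed to 76.2 to 150 CPM in NC and 85.2 to 139 in HS_Chol. Their sum was 130 to 298 in CA and 484 to 2090 in Chol_CA. The 5 dendritic cell markers summed to 14.3 to 55.2 CPM in NC, 52.2 to 270 in HS_Chol, 29.8 to 141 in CA and 277 to 1740 in Chol_CA. In Chol_CA against NC all tested genes of these lists rose, 7 of 7, 9 of 9 and 4 of 4. In HS_Chol against NC 3 of 7, 0 of 9 and 0 of 4 did, where 1.71% of all genes rose.

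T and NK cell markers summed to 2.33 to 8.66 CPM in NC, 2.76 to 27.4 in CA and 11.7 to 58.6 in Chol_CA, and 6 of 6 tested rose in Chol_CA. Neutrophil markers summed to 0.286 to 2.98 CPM in NC and 11.3 to 64.2 in Chol_CA, and Ly6g had no read in the NC, HS, HS_Chol or CA libraries. Endothelial markers stood at 112 to 210 CPM in NC and 73.4 to 241 in Chol_CA, with 1 of 6 called. Hepatocyte markers, which dominate liver RNA, summed to 110000 to 119000 CPM in NC and 51000 to 62200 in Chol_CA, with 3 of 6 lower and none higher. The other diets also lay below NC in every library, at 82900 to 99000 CPM in HS, 72400 to 79500 in HS_Chol and 75900 to 103000 in CA. In CA 2 of 6 were called lower, and in HS and HS_Chol none. The part of these cell type markers in the chemokine differences was not tested.

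**Figure D3:**
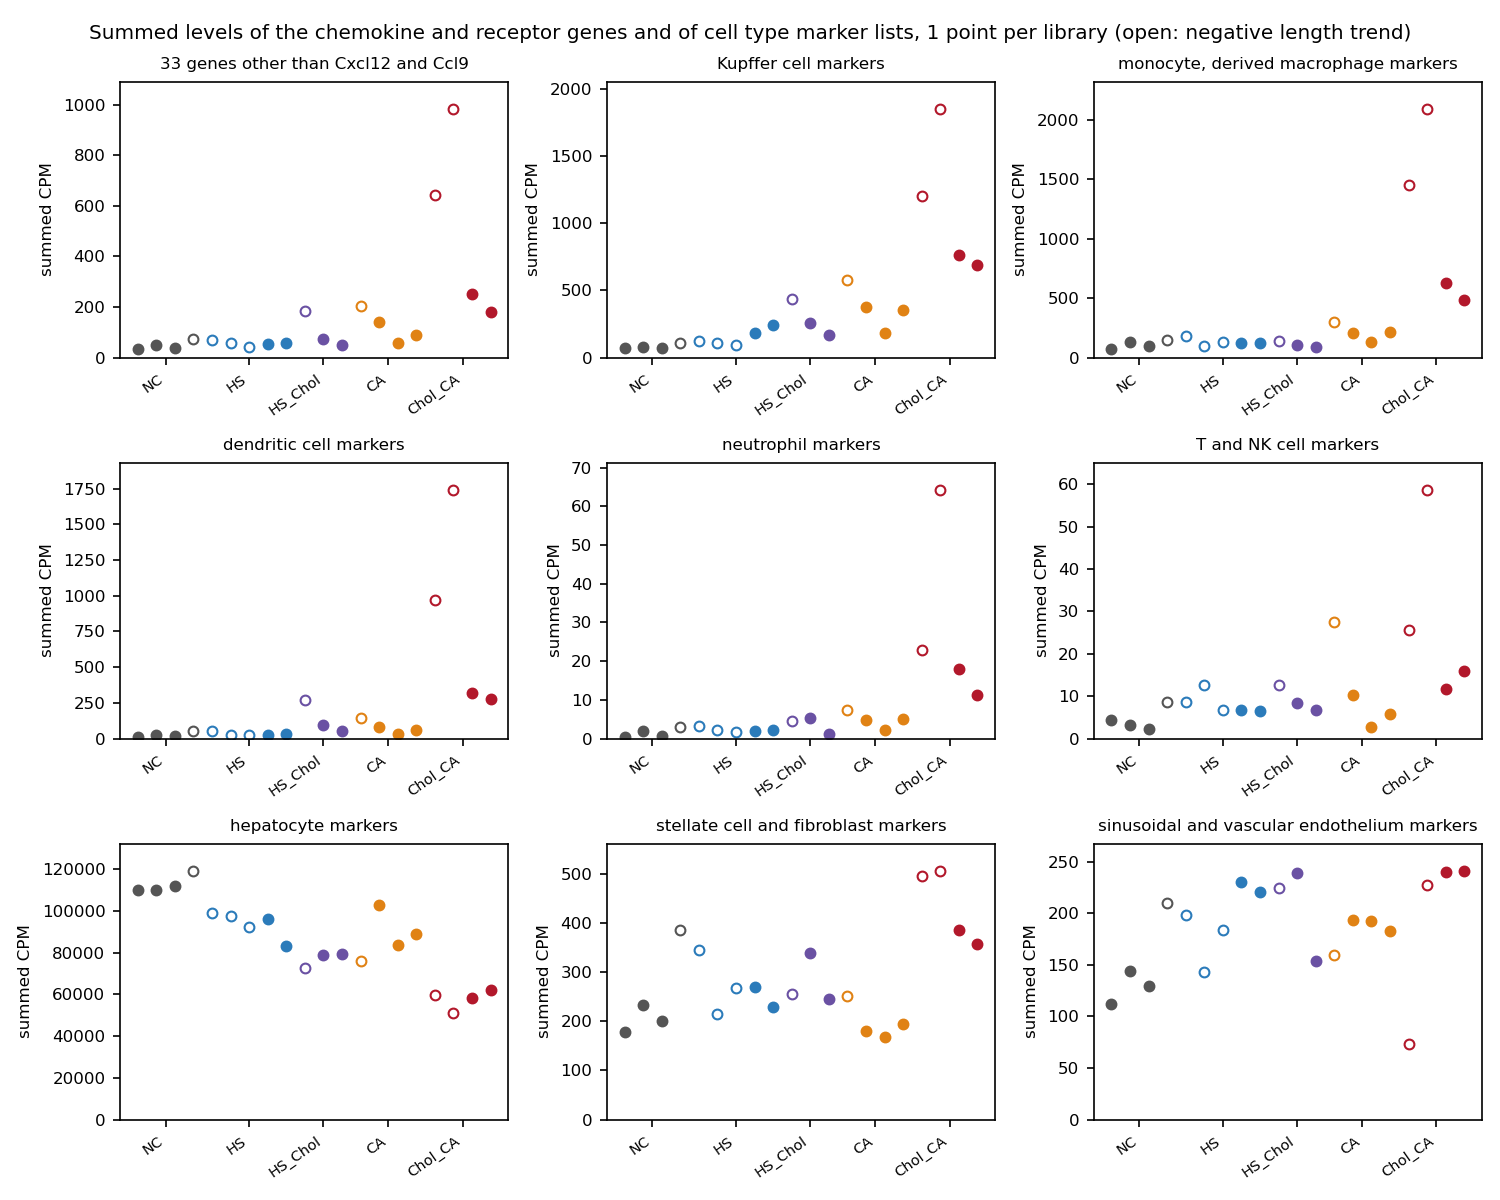
Summed CPM of the chemokine and receptor genes and of cell type marker lists, 1 panel per list and 1 point per library (open where the length trend is negative), grouped by diet along the x axis. Kupffer cell markers stand at 690 to 1850 CPM in the Chol_CA libraries and at 71.3 to 111 CPM in the NC libraries.

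Ccl9 and Cxcl12 come first, as the most abundant of the family in chow. Ccl9 (chr11:83572919-83578636, minus strand, mm10), made by macrophages and other myeloid cells, stood at 57.6, 49.9, 58.5 and 67.9 CPM in the NC libraries, in the table's order. The 5 HS libraries held 41.8, 50.0, 55.1, 40.8 and 40.6 CPM, and the 3 HS_Chol libraries 40.6, 36.7 and 31.5. The CA libraries held 138, 173, 194 and 189 CPM, and the Chol_CA libraries 125, 131, 62.7 and 53.1. Every CA library was above every library of the other diets. Of the Chol_CA libraries, the pair with a negative length trend lay well above chow and the pair with a positive trend lay among the chow values.

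Ccl9 rose by 1.57 ± 0.232 in CA against NC (adjusted p = 0.000174), a call kept in all 14 alternatives. In Chol_CA it was only 0.67 ± 0.229 above NC (adjusted p = 0.0386). That call was lost in 9 of 14 alternatives, and in positive-trend libraries the difference was 0.05 (adjusted p = 0.783). Against CA, Ccl9 fell by 0.90 in Chol_CA (SE 0.228, adjusted p = 0.00753), and by 1.69 in positive-trend libraries.

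Cxcl12 (chr6:117168535-117181367, plus strand), the homeostatic ligand that retains leukocytes in bone marrow, stood at 341, 444, 379 and 349 CPM in NC. In CA it stood at 201, 254, 277 and 232 CPM and in Chol_CA at 216, 167, 284 and 303. Levels in HS were 336, 315, 283, 321 and 339 CPM, and in HS_Chol 326, 349 and 272. All 8 libraries of the cholic acid diets lay below all 4 chow libraries. Cxcl12 fell by 0.65 in CA (SE 0.163, adjusted p = 0.0131) and by 0.64 in Chol_CA (SE 0.163, adjusted p = 0.00585). The first call was lost without NC_1 (-0.57, adjusted p = 0.0528). The second was lost where only the 2 diets compared entered the fit (-0.62, adjusted p = 0.0631). The HS libraries also lay below every NC library, without a call (-0.25 ± 0.154, adjusted p = 0.568).

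Ccl6, a myeloid CC ligand encoded beside Ccl9 (chr11:83587882-83593087, minus strand), also rose in CA and was higher again in Chol_CA, where Ccl9 was lower than in CA. It held 1.29, 1.52, 2.20 and 2.13 CPM in NC, 13.0, 8.24, 4.54 and 8.92 in CA and 70.5, 124, 39.8 and 24.8 in Chol_CA. The 5 HS libraries held 3.42, 2.12, 1.73, 5.31 and 5.40 CPM and the HS_Chol libraries 7.83, 5.29 and 2.95. The ranges of NC, CA and Chol_CA were separate from one another. Ccl6 rose by 2.26 ± 0.517 in CA (adjusted p = 0.00747) and by 5.16 ± 0.516 in Chol_CA (adjusted p = 9.01e-07). Chol_CA was also 2.90 ± 0.432 above CA (adjusted p = 0.000147). Per kilobase, Ccl6 stood at 36.0 ± 24.3 CPM in Chol_CA and Ccl9 at 30.5 ± 13.3, so their levels there overlapped. In NC they were at 0.997 ± 0.251 and 19.2 ± 2.43. An antisense transcript, E230016K23Rik, overlaps exons of Ccl6.

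Cxcl13, the B cell attractant of lymphoid follicles, was the other ligand that rose with cholic acid alone, by 2.72 ± 0.747 (adjusted p = 0.0236). It held 0.430, 0.692, 0.130 and 0.994 CPM in NC and 8.11, 3.06, 0.691 and 3.29 in CA, so the groups overlapped through CA_2. That call was lost in 5 of 13 alternatives. In Chol_CA it rose by 3.05 ± 0.740 (adjusted p = 0.00422), with 3.84, 8.37, 1.47 and 5.20 CPM.

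Monocyte-attracting ligands were scarce in chow. Ccl2, the main ligand of the monocyte receptor Ccr2 (chr11:82035571-82037453, plus strand), held 0.143, 0.554, 0.259 and 0.284 CPM in NC and 12.7, 12.0, 6.06 and 3.14 in Chol_CA. In CA it held 3.06, 1.30, 0.592 and 0.531 CPM, in HS 0.996, 0.815, 0, 0.544 and 0.750, and in HS_Chol 2.40, 0.453 and 0.328. All 4 Chol_CA libraries lay above those of every other diet. Ccl2 rose by 4.69 ± 0.732 in Chol_CA against NC (adjusted p = 7.35e-05). Against CA it rose by 2.64 ± 0.582 (adjusted p = 0.00304). Gm17268 overlaps exons of Ccl2 on the other strand.

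Ccl7, Ccl8 and Ccl12, encoded on the same stretch of chromosome 11 as Ccl2, had too few reads for the test. Ccl8 had 1 read over the NC libraries and 50 over the Chol_CA libraries, a ratio of CPM of 40.5 with an exact 95% counting interval of 6.94 to 1630. Ccl7 went from 2 reads to 35, a ratio of 14.2 (3.64 to 122). Most of these reads were in Chol_CA_0 and Chol_CA_1, the pair with a negative length trend. In the table's order the Chol_CA libraries held 15, 30, 3 and 2 reads of Ccl8 and 12, 18, 3 and 2 of Ccl7. Ccl12 went from 2 reads to 6, and its interval of 0.435 to 24.6 includes no change. Such intervals cover counting error only, not the spread between livers.

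Ccl3, Ccl4 and Ccl5, attractants of monocytes and T cells, were scarce in chow. Ccl5 stood at 0.573, 1.11, 0.519 and 0.568 CPM in NC and at 49.8, 142, 6.06 and 9.09 in Chol_CA. In CA it stood at 20.8, 5.65, 0.888 and 1.70 CPM, so 1 library of CA, with a negative length trend, lay above the lower pair of Chol_CA. Ccl5 rose by 6.19 ± 1.14 in Chol_CA against NC (adjusted p = 0.000373), and by 3.33 in positive-trend libraries (adjusted p = 0.00449). Its rise of 2.85 ± 0.858 against CA (adjusted p = 0.0222) was lost in 7 of 14 alternatives. One of them left out Chol_CA_1 (1.58, adjusted p = 0.189).

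Ccl3 and Ccl4 rose by 4.79 ± 1.12 and 5.53 ± 1.34 in Chol_CA against NC (adjusted p = 0.00316 and 0.00418). With only 3 and 1 reads over the NC libraries, their ratios of CPM were 31.6 (10.5 to 155) and 65.6 (11.4 to 2620). The CA libraries held 53 and 26 reads of them, of which 38 and 22 were in CA_0. In CA against NC neither was called (3.67 ± 1.21 and 3.89 ± 1.55, adjusted p = 0.0605 and 0.135). Nor was either called in Chol_CA against CA (1.12 ± 0.736 and 1.64 ± 0.815, adjusted p = 0.327 and 0.172). Ccr1 itself went from 3 reads in NC to 73 in Chol_CA, a ratio of 19.7 (6.48 to 97.8).

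Ligands of Cxcr2, the main receptor of neutrophils, were split by their level in chow. Cxcl1 was already present in NC at 1.95 to 12.2 CPM and reached 12.1 to 32.1 in Chol_CA, where it rose by 1.58 ± 0.381 (adjusted p = 0.00399) although the groups touched. Cxcl2, encoded next to it, had 1 read over the NC libraries and 54 over the Chol_CA libraries, a ratio of 43.7 (7.52 to 1760). Its CPM were 0, 0, 0 and 0.142 in NC, 0.353, 0.236, 0 and 0.212 in CA and 1.32, 1.83, 2.25 and 0.541 in Chol_CA. HS held 0, 0, 0.157, 0.136 and 0 CPM, and HS_Chol 1.12, 0.302 and 0. One HS_Chol library thus reached the Chol_CA range. Cxcl2 rose by 2.85 ± 0.710 in Chol_CA against CA (adjusted p = 0.00699).

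Cxcl5 had no read in NC or CA and 11 in Chol_CA, at least 2.97-fold higher than a floor of 3 reads over the NC libraries. Of the 11 reads, 7 were in Chol_CA_0 and 0 in Chol_CA_3. Cxcr2 had no read in NC and 24 in Chol_CA, at least 6.48-fold higher, and neither gene passed the filter for the test. Ratios to such a floor leave out the counting error of the Chol_CA reads and the spread between livers.

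Promoter sequences are shown for genes called in Chol_CA in which 1 of 2 motifs of inflammatory transcription lies in the 250 bases before the start site. RefSeq (GRCm38.p6) gave such a stretch for 26 of the 35 genes. It gave none for Ccl2, Ccl4, Ccl5, Ccl7, Ccl24, Cxcl5, Cxcl11, Cxcl16 and Ccr7. Capitals mark the match in each sequence, which is written 5′ to 3′ on the gene's strand. Searched on both strands were the 10-base kappaB consensus, bound by NF-kappaB, and the interferon response element core (GAAA, any 2 bases, GAAA), bound by IRF factors.
Cxcl1: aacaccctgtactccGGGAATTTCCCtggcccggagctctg
Cxcl2: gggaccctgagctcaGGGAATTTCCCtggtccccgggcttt
Cxcl10: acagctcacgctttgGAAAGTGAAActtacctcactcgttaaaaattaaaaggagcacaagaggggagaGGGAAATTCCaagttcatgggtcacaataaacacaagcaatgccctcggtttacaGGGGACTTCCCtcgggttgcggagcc
Ccrl2: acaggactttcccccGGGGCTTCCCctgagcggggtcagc
Ccl9: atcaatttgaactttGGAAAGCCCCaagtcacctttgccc
Cxcl14: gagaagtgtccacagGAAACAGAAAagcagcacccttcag

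The stretches lie at chr5:90891159-90891199 (Cxcl1, plus strand), chr5:90903787-90903827 (Cxcl2, plus) and chr5:92348968-92349117 (Cxcl10, minus). Those of the other genes are chr9:111057550-111057589 (Ccrl2, minus), chr11:83578647-83578686 (Ccl9, minus) and chr13:56296699-56296738 (Cxcl14, minus). In Cxcl1, in Cxcl2 and at the last site of Cxcl10, 2 kappaB matches overlap, shifted by 1 base. The Cxcl10 stretch holds an interferon element first and then the kappaB matches, and the Cxcl14 stretch holds only an interferon element. The 26 genes with a sequence have 29 such stretches, as some have more than 1. A kappaB match was found in 6 of the 29, in 6 genes, and in 7.25% of all 32851 promoter stretches of that length. The interferon core was found in 3 of the 29, in 3 genes, and in 2.98% of all stretches. Of the 17 genes with a sequence that were called higher in Chol_CA against NC, 5 held the first and 2 the second. Ccl9 holds a kappaB match too, although its level in Chol_CA was near chow in the positive-trend libraries. These matches describe letters in a sequence and say nothing about binding in these livers.

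The interferon-inducible ligands of Cxcr3, which attract T and NK cells, were not alike. Cxcl9 (chr5:92321347-92328079, minus strand) held 4.73, 11.1, 7.13 and 12.1 CPM in NC and 268, 346, 64.9 and 41.9 in Chol_CA. CA libraries held 72.6, 61.7, 6.81 and 26.3 CPM, HS libraries 10.7, 12.4, 6.43, 10.2 and 13.6, and HS_Chol libraries 100, 21.9 and 12.6. Chol_CA lay wholly above NC but overlapped CA and HS_Chol. Cxcl9 rose by 4.36 ± 0.785 against NC (adjusted p = 0.000306), and by 2.79 in positive-trend libraries (adjusted p = 0.0433). Its rise of 2.11 ± 0.694 against CA (adjusted p = 0.0356) was lost in 8 of 14 alternatives. Per kilobase, Cxcl9 at 59.7 ± 49.7 CPM and Ccl5 at 54.1 ± 66.2 had the highest means of the family in Chol_CA, with spreads that overlap those of Ccl6, Ccl9 and Cxcl12.

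Cxcl10 (chr5:92346638-92348889, minus strand) held 0.859, 1.80, 2.59 and 2.56 CPM in NC and 30.3, 48.6, 4.49 and 5.20 in Chol_CA. In CA it held 17.6, 8.83, 3.85 and 4.99 CPM, in HS 3.42, 3.26, 1.41, 2.04 and 2.55, and in HS_Chol 15.7, 4.23 and 1.48. Both cholic acid diets lay above chow in every library, with Chol_CA overlapping CA. Cxcl10 rose by 3.48 ± 0.776 in Chol_CA against NC (adjusted p = 0.00213), and by 1.43 in positive-trend libraries (adjusted p = 0.0422). Its exons overlap Art3 on the other strand.

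Cxcl11, annotated as a polymorphic pseudogene in this reference, held 3.87, 2.35, 1.82 and 6.11 CPM in NC and 3.71, 5.39, 2.15 and 3.03 in Chol_CA. In CA it held 3.76, 2.59, 2.17 and 1.59 CPM, in HS 6.55, 8.15, 4.71, 3.67 and 4.20, and in HS_Chol 3.67, 2.72 and 2.30. All diets overlapped chow, and no comparison called it. Its exons also overlap Art3.

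Cxcr3, the shared receptor, stayed under 3 CPM in every library. It held 0.286, 0.415, 0.519 and 0.426 CPM in NC and 2.65, 2.98, 1.17 and 1.84 in Chol_CA, with no overlap. CA held 1.29, 0.589, 0.888 and 0.319 CPM, HS 0.569, 0.326, 0, 0.408 and 0.300, and HS_Chol 1.12, 0.604 and 0.328. Cxcr3 rose by 2.33 ± 0.504 against NC (adjusted p = 0.00165). Against CA the rise of 1.46 ± 0.444 (adjusted p = 0.0232) was lost in 7 of 14 alternatives.

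Cxcl16 and Cx3cl1 are the family's membrane-bound ligands, which also hold cells in place until they are shed. Cxcl16 (chr11:70453983-70459984, minus strand) held 5.30, 8.59, 8.17 and 11.5 CPM in NC and 60.0, 92.0, 34.1 and 26.0 in Chol_CA. In CA it held 14.9, 11.5, 10.1 and 11.9 CPM, in HS 11.2, 6.84, 7.69, 8.57 and 10.2, and in HS_Chol 11.3, 11.9 and 9.03. Every Chol_CA library lay above all libraries of the other diets. Cxcl16 rose by 2.66 ± 0.316 against NC (adjusted p = 4.68e-06) and by 2.13 ± 0.304 against CA (adjusted p = 0.000102), both calls kept in every alternative. Zmynd15 overlaps its exons on the other strand.

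Cxcr6, the Cxcl16 receptor of liver-resident T and NKT cells, was near its detection limit in chow, with 0, 0.138, 0 and 0.852 CPM. Chol_CA libraries held 2.65, 4.81, 1.37 and 1.62 CPM, CA libraries 1.53, 0.471, 0.0987 and 0.531, and HS libraries 1.14, 0.652, 0, 0.408 and 0.150. In HS_Chol the values were 3.03, 0.151 and 0.164 CPM, so 1 library of that diet reached the Chol_CA range. Cxcr6 rose by 3.33 ± 0.987 against NC (adjusted p = 0.0166). Leaving out Chol_CA_1, NC_0 or NC_2 ended the call, with an adjusted p of 0.0598 without Chol_CA_1. Fyco1 overlaps its exons on the other strand.

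Cx3cl1, or fractalkine (chr8:94772009-94782427, plus strand), held 0.430, 2.08, 2.20 and 1.14 CPM in NC and 5.56, 6.76, 3.81 and 4.22 in Chol_CA. CA held 3.53, 1.88, 0.790 and 1.81 CPM, HS 1.57, 0.815, 1.10, 0.952 and 1.35, and HS_Chol 0.799, 3.32 and 0.820. No library of another diet reached the Chol_CA range. The rise of 1.77 ± 0.466 against NC (adjusted p = 0.00762) was lost in positive-trend libraries (1.32, adjusted p = 0.0928). That of 1.35 ± 0.443 against CA (adjusted p = 0.0348) was lost in 7 of 14 alternatives.

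Its receptor Cx3cr1, carried by patrolling monocytes and some macrophages, held 0.430, 0.969, 0.259 and 1.14 CPM in NC and 13.6, 10.4, 8.30 and 4.00 in Chol_CA. CA held 2.12, 1.06, 0.691 and 1.17 CPM, HS 1.42, 0.978, 1.25, 1.09 and 0.300, and HS_Chol 1.28, 1.21 and 0.820. Chol_CA was separate from every other diet. Cx3cr1 rose by 3.68 ± 0.460 against NC (adjusted p = 7.82e-06) and by 2.85 ± 0.415 against CA (adjusted p = 0.000122). Wdr48 overlaps its exons on the other strand.

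Ccr2 (chr9:124101950-124113557, plus strand), which marks inflammatory monocytes, held 0.573, 1.25, 0.908 and 2.56 CPM in NC and 26.1, 29.0, 10.9 and 3.57 in Chol_CA. CA held 4.00, 1.77, 0.987 and 2.44 CPM, HS 2.13, 0.815, 1.10, 1.36 and 0.900, and HS_Chol 3.51, 1.06 and 1.64. The lowest Chol_CA library lay above chow but below the highest CA library. Ccr2 rose by 3.70 ± 0.593 against NC (adjusted p = 9.72e-05). It rose by 2.92 ± 0.544 against CA (adjusted p = 0.000868).

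Cxcr4 (chr1:128588199-128592293, minus strand), the receptor of Cxcl12 on most leukocytes, held 1.15, 0.277, 0.519 and 1.56 CPM in NC and 13.1, 23.7, 8.40 and 5.95 in Chol_CA. CA held 0.823, 1.18, 1.09 and 0.956 CPM, HS 1.42, 0.815, 1.10, 0.544 and 1.05, and HS_Chol 0.958, 1.66 and 1.15. All 16 libraries without that diet were at or below 1.66 CPM, and all 4 with it were at or above 5.95. Cxcr4 rose by 3.85 ± 0.445 against NC (adjusted p = 3.62e-06) and by 3.64 ± 0.425 against CA (adjusted p = 1.31e-05). Both calls were kept in every alternative, and no exon of another gene lies opposite.

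Cxcl14, a ligand without an agreed receptor, had a mean in CA that was not above chow. It held 1.86, 1.94, 1.82 and 3.12 CPM in NC, 2.47, 1.06, 0.790 and 1.59 in CA and 11.3, 19.7, 13.6 and 7.79 in Chol_CA. HS held 3.27, 1.63, 1.25, 1.50 and 1.65 CPM, and HS_Chol 1.44, 1.06 and 2.63. Chol_CA lay above all the rest. Cxcl14 (chr13:56288643-56296551, minus strand) rose by 2.58 ± 0.361 against NC (adjusted p = 2.37e-05) and by 3.15 ± 0.370 against CA (adjusted p = 1.33e-05). In CA against NC it was at -0.57 ± 0.404 (adjusted p = 0.469).

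The remaining tested genes that rose in Chol_CA were Ccl22 (3.99 ± 0.711), a dendritic cell product, Ccl24 (3.39 ± 0.661), which attracts eosinophils, Ccr7 (2.26 ± 0.579), which guides cells to lymph nodes, and Ccrl2 (2.17 ± 0.409). Ccrl2 is an atypical receptor that does not signal through G proteins. Their adjusted p values were 0.000278, 0.000657, 0.00623 and 0.000462, and no Chol_CA library of the 4 genes overlapped chow. Ccl25, the gut ligand of Ccr9, held 4.50 to 6.71 CPM in Chol_CA and 4.01 to 8.52 in NC. Ccl19, the ligand of Ccr7, had no read in NC and 22 in Chol_CA, at least 5.94-fold higher, and near-identical copies of Ccl19 in the mouse genome make its count uncertain. Without the filter, Ccl7, Ccl8, Ccl19, Ccr1 and Cxcr2 had adjusted p values of 0.00115 to 0.0168 in edgeR's test of Chol_CA against NC. Those of Cxcl5, Ccr9, Ccl17 and Ccl12 were 0.0811, 0.121, 0.542 and 0.596.

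Ligands were then set beside their receptors. The 35 genes hold 19 known pairs of a ligand and a receptor, and in 7 of them both genes were tested. In Chol_CA against NC both genes rose in 5 pairs, Ccl2 with Ccr2, Cxcl9 and Cxcl10 with Cxcr3, Cxcl16 with Cxcr6, and Cx3cl1 with Cx3cr1. For Cxcl11 and Cxcr3 only the receptor rose. For Cxcl12 and Cxcr4 the ligand fell while the receptor rose. Pairs of Cxcr3 share that receptor and are not independent. Ccl2, Cxcr3 and Cxcr6 passed the filter on low counts only with their Chol_CA libraries counted. Pairs that hold these genes were tested because the genes were high in Chol_CA. The counts of pairs that rose, here and against CA, are therefore partly set by the filter.

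In Chol_CA against CA, where 13.4% of all genes rose and 7.80% fell, 15 of the 26 genes rose and Ccl9 fell. The median difference was 1.86, beside 0.02 over all genes. Every Chol_CA library lay above every CA library for 12 genes, where 12.1% of all genes did so, and below for Ccl9, where 7.22% did. Both genes rose in 3 pairs, Ccl2 with Ccr2, Cxcl9 with Cxcr3, and Cx3cl1 with Cx3cr1. Only Cxcl16 rose of its pair, and only the receptor rose in the other 3. Of the same 7 pairs no gene was called in HS or HS_Chol against NC, and in CA against NC only Cxcl12 was. Of the 15 rises, 9 kept their call with only the 2 diets in the fit, 8 with positive-trend libraries and 8 without Chol_CA_1. Over all genes the first 2 of these fits called 1063 and 1724 higher, beside 1693 in the fit used here. In this comparison 4 of 7 Kupffer cell markers rose (median 1.48), as did 8 of 9 tested monocyte and macrophage markers (median 3.40). So did 6 of 7 stellate cell and fibroblast markers (median 1.47), 4 of 4 tested neutrophil markers (median 2.53) and 3 of 4 tested dendritic cell markers (median 1.95). Of the T and NK cell markers only 1 of 6 tested rose (median 1.27), and of the bile duct markers 1 of 4. No endothelial, B cell and plasma cell or hepatocyte marker rose, and 1 of 6 hepatocyte markers fell. The stellate cell and fibroblast markers summed to 169 to 251 CPM in CA and 357 to 506 in Chol_CA. In NC they summed to 179 to 386 CPM, which overlaps both. The part of these lists in the 15 rises was not tested.

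**Figure D4:**
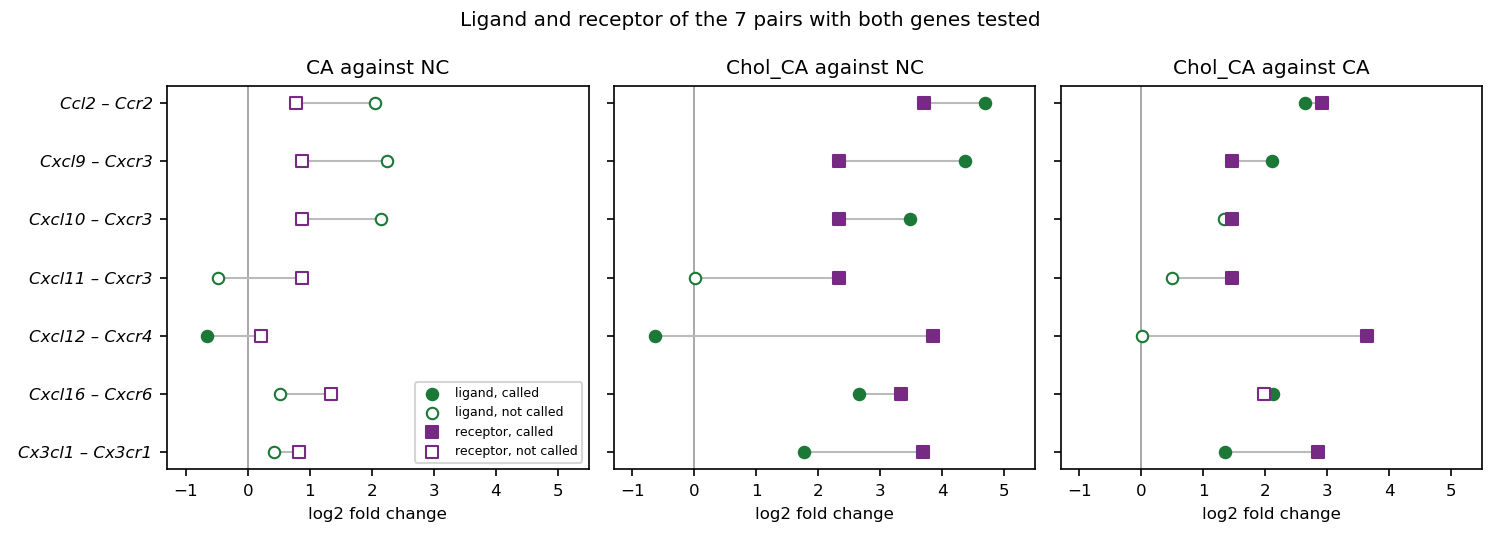
Log2 fold changes of the ligand and of the receptor in the 7 pairs with both genes tested, filled where called at adjusted p under 0.05, with 1 panel per comparison and pairs along the y axis. In Chol_CA against NC both points are filled to the right in 5 pairs, and Cxcl12 lies at -0.64 while Cxcr4 lies at 3.85.

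Adding cholesterol could be compared between the base diets, sucrose and cholic acid. In HS_Chol against HS none of the 26 genes was called by edgeR or DESeq2, where 1.60% of all genes were called higher and 0.651% lower. An unadjusted p under 0.05 was found for 3 of the 26, and for 13.1% of all genes. The median difference was 0.63, beside 0.01 over all genes. No gene had every HS_Chol library above every HS library, where 6.33% of all genes did. Ccl9 and Cxcl11 had every one below, where 5.43% did. Cxcl9 at 2.07 and Cxcl2 at 2.69 had the smallest adjusted p values, 0.180 and 0.289.

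The difference between the cholesterol differences was tested as an interaction, (Chol_CA minus CA) minus (HS_Chol minus HS). It was called higher for 6 of 26 genes, where 2.47% of all genes were, and lower for none, where 3.53% were. The median interaction was 0.86, beside 0.06 over all genes. The 6 were Cxcl14 (3.28 ± 0.576, adjusted p = 0.00138), Cxcr4 (3.28 ± 0.691, adjusted p = 0.00632), Cxcl16 (1.86 ± 0.451, adjusted p = 0.0175), Cx3cr1 (2.72 ± 0.685, adjusted p = 0.0222), Ccrl2 (2.37 ± 0.620, adjusted p = 0.0276) and Ccl6 (2.33 ± 0.669, adjusted p = 0.0430). Only Cxcl14 kept its call in all 22 alternatives. Cxcr4 lost it in positive-trend libraries (1.88, adjusted p = 0.107), and Ccl6 lost it in 13 of 22. Without CA_2 or HS_Chol_2, 2 genes were called, and without HS_Chol_1, 3. The HS_Chol libraries are those with raised light-strand mitochondrial tRNA reads, and the HS group may hold a chow liver. The part of either in the interaction was not tested. For Cxcl9 and Cxcl10 the interaction was 0.04 and -0.16 (adjusted p = 0.988 and 0.943).

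**Figure D5:**
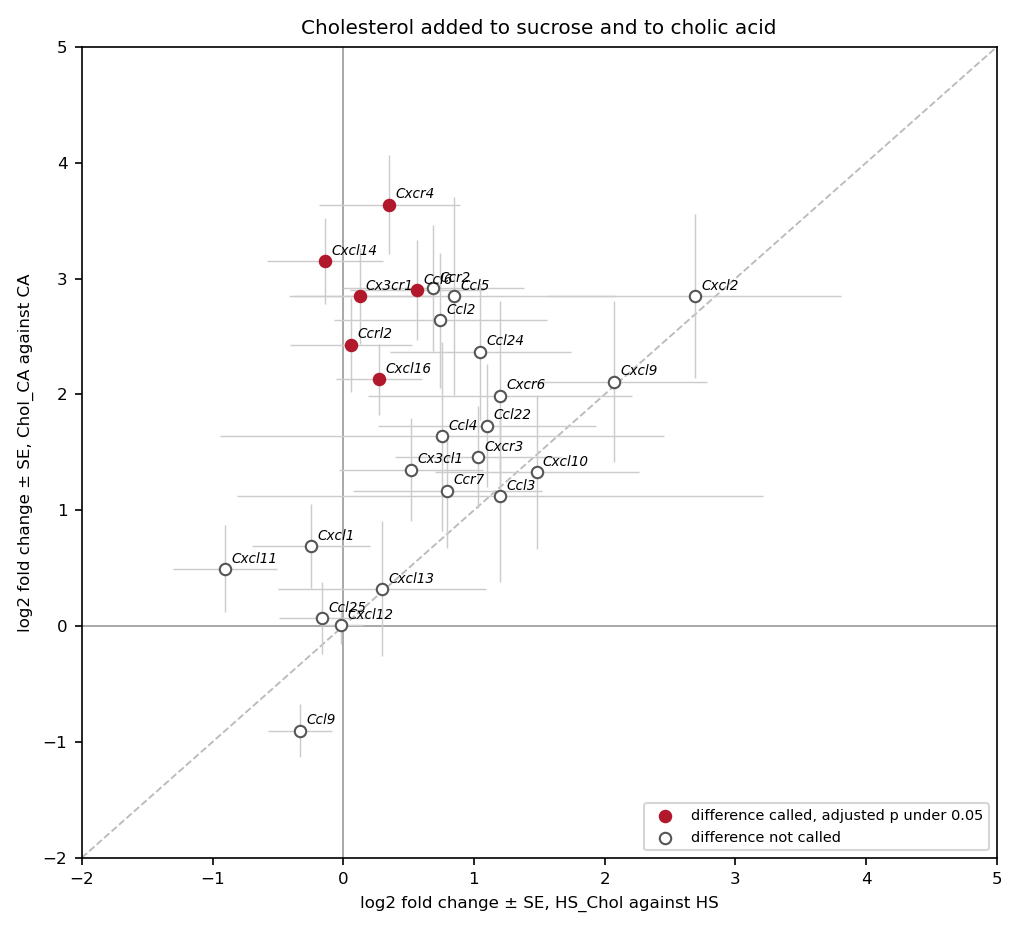
Log2 fold change ± SE of each tested gene for cholesterol added to sucrose (x axis, HS_Chol against HS) and to cholic acid (y axis, Chol_CA against CA), with red points where the difference of the differences was called. The red points of Cxcl14 and Cxcr4 have the largest interaction, 3.28 each.

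Other genes of the chemokine system were read from 3 lists. Of 25 other family members 7 had enough reads, and in Chol_CA against NC 2 rose, where 15.0% of all genes did, with a median difference of 0.18 over the 7. One was Xcr1, a receptor of cross-presenting dendritic cells (3.26 ± 0.830, adjusted p = 0.00599). Xcr1 held 0 to 0.568 CPM in NC and 0.974 to 3.58 in Chol_CA, with no overlap.

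Ackr4, a scavenging receptor of Ccl19 and Ccl25, was called in the sucrose and cholesterol diet. It held 0.778 to 1.56 CPM in NC, 1.20 to 2.44 in HS and 10.5 to 14.2 in HS_Chol. It rose by 3.52 ± 0.306 against NC (adjusted p = 5.78e-07) and by 2.64 ± 0.268 against HS (adjusted p = 2.98e-06). It was singled out after its values were seen. Acad11 overlaps its exons on the opposite strand, and the HS_Chol libraries are those with raised light-strand mitochondrial tRNA reads, whose part in this difference was not tested.

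Of 22 signalling genes below the receptors, 18 rose in Chol_CA against NC and none fell, with a median of 1.94, where 15.0% of all genes rose. Those with the smallest adjusted p were Dock2, a Rac activator of leukocyte migration (3.84 ± 0.358, adjusted p = 4.78e-07), and Pik3r5, a subunit of PI3 kinase gamma (4.09 ± 0.450, adjusted p = 2.16e-06). In CA against NC 6 of the 22 rose, where 5.22% of all genes did, and in HS_Chol against NC 1, where 1.71% did.

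Of 18 tested genes for signals that induce chemokines, 14 rose in Chol_CA against NC and none fell, with a median of 1.68, beside the same 15.0% of all genes. Tnfaip3, the NF-kappaB target that restrains NF-kappaB signalling, rose by 3.32 ± 0.290 (adjusted p = 2.29e-07), and Cd14, the endotoxin co-receptor, by 4.33 ± 0.543 (adjusted p = 7.90e-06). In CA against NC 3 of the 18 rose, beside 5.22% of all genes, and in HS_Chol against NC 2, beside 1.71%.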

How the data were processed

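Whole-liver RNA was sequenced as 50 bp single-end reads from a stranded total RNA kit and counted per gene with STAR 2.6.1c against mm10, per the labels' protocols and the submitters' processing notes. The authors deposited raw read counts per gene symbol, and the strand setting of the counting is not given in the sources used here. Of 23 columns of values, 20 matched a diet by name, and 3 that matched no label were not used. Depth was 6110484 to 10244277 reads, which leaves genes of a few reads with wide counting intervals.

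Counts were tested with edgeR 4.0.16 (limma 3.58.1, R 4.3.3): filterByExpr, TMM scaling, robust quasi-likelihood fit of 20 libraries with 1 mean per diet, Benjamini-Hochberg adjustment over 12595 genes and a threshold of 0.05. The common biological coefficient of variation was 0.235. Ratios of genes with 1 to 3 chow reads carry exact 95% binomial intervals, and genes with none are set against 3 reads over the group. The scripts were tested on simulated data. Alternatives were relative log expression scaling, no filter, only the diets compared, only libraries with a positive length trend, the sign of that trend as a term, DESeq2 1.42.0 and each library left out in turn.

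Of 34436 symbols, 29014 matched a GENCODE M21 gene name and 1848 an older name. Gene positions and exon lengths come from that annotation. The genes, pairs and lists were chosen with earlier results of these data known. Every library's value is given for genes with the smallest adjusted p (5 in Chol_CA against NC, 3 in each other diet against NC, 2 in HS_Chol against HS, 3 in Chol_CA against CA and 3 in the interaction) and for both genes of a pair called in the same comparison. Values of Ccl5 and Cxcl13 were added after they were seen.

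Marker lists not named with their values were B cell and plasma cell (2 of 4 tested higher in Chol_CA against NC), stellate cell and fibroblast (2 of 7), bile duct (1 of 4) and other tissue (2 of 3 lower). One result on a gene outside the 35 is not reported here.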

Additional observations from a re-analysis of the deposited data

Results flagged for a closer look

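A single library lay far from the rest of its diet in 4 of 64 groups examined (16 genes in the 4 diets with 4 or 5 libraries). Chance alone flags about 1 in 20 where values are normally distributed. That rate need not hold for genes of a few reads. In NC_3, which has a negative length trend, Cxcl2 stood at 0.142 CPM where the other chow libraries had no read, which is a single read. Cxcl14 in NC_3 stood at 3.12 CPM, where the others held 1.82 to 1.94. Cxcr6 in NC_3 stood at 0.852 CPM, where the others held 0 to 0.138. Cxcl14 in HS_0, also with a negative length trend, stood at 3.27 CPM, where the others held 1.25 to 1.65.

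The interaction test of the report called a difference between the base diets in the cholesterol difference for 6 genes. Only Cxcl14 kept that call in all 22 alternatives. On the log2 scale the cholic acid base exceeded the sucrose base by 3.28 for Cxcl14, 3.28 for Cxcr4, 2.72 for Cx3cr1, 2.37 for Ccrl2, 2.33 for Ccl6 and 1.86 for Cxcl16.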

How the results depend on the processing

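Relative log expression scaling kept every count of called chemokine and receptor genes. Libraries with a positive length trend alone gave 1 gene lower in HS_Chol against NC, 6 higher in CA against NC, 9 higher in Chol_CA against CA and 1 lower in the interaction. The trend's sign as a term gave 9 higher in CA against NC, and DESeq2 gave 6. With only the diets compared in the fit, 0 were lower in Chol_CA against NC and 0 in Chol_CA against CA. Leaving out single libraries gave 2 to 6 higher and 0 to 1 lower in CA against NC, 8 to 17 higher in Chol_CA against CA, and 2 to 7 higher in the interaction. Fewer libraries of some diets remain in the positive-trend and leave-one-out fits; the cause of the other changes was not tested.

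Of 58 results on single genes, 39 kept their call in all alternatives; 86 of 843 alternatives changed a call and 0 reversed one. Counts over all genes that moved by over 1.5 times are given here, higher and then lower. The report's fit called 27 and 55 in HS against NC, 216 and 71 in HS_Chol against NC, 657 and 581 in CA against NC, 201 and 82 in HS_Chol against HS and 311 and 445 in the interaction. In Chol_CA against NC it called 1178 lower, and in Chol_CA against CA 1693 higher and 983 lower. Positive-trend libraries gave 186 and 193 in HS against NC, 376 and 241 in HS_Chol against NC, 1521 and 1445 in CA against NC, 577 and 839 in the interaction, and 1716 lower in Chol_CA against CA. The length trend's sign as a term gave 49 and 94 in HS against NC, 344 and 159 in HS_Chol against NC, 1069 and 930 in CA against NC, and 305 and 133 in HS_Chol against HS. DESeq2 gave 57 and 137 in HS against NC, 399 and 150 in HS_Chol against NC, and 336 and 157 in HS_Chol against HS. Without the filter 358 were higher in HS_Chol against NC and 346 in HS_Chol against HS. With only the diets compared, 701 were lower in Chol_CA against NC, and 1063 higher and 523 lower in Chol_CA against CA. Leaving out single libraries gave 6 (without NC_2) to 58 (without NC_3) higher and 29 to 100 lower (the same libraries) in HS against NC. It gave 36 (without HS_Chol_0) to 82 lower in HS_Chol against NC and 33 (without HS_Chol_0) to 80 lower in HS_Chol against HS. It gave 376 (without NC_0) to 685 higher in CA against NC, 960 (without CA_2) to 1939 higher in Chol_CA against CA, and 130 (without CA_2) to 608 (without CA_0) higher and 318 to 707 (without CA_0) lower in the interaction. No paired analysis was possible because the table numbers its columns from 0 and the labels from 1, so columns map to diets and not to single samples; the replicate block was not run. Low depth limits genes of a few reads, such as Ccl12.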
